A study of Mus musculus with 3 samples.

Results

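The distal-less homeobox family of the mouse, *Dlx1* to *Dlx6*, and the antisense transcripts *Dlx1as* and *Dlx6os1* were described in RNA-Seq counts of the E10.5 maxillary process. The members were found by name, with no measured value in the rule: every row whose gene name in GENCODE M21 was one of these 8 names was taken, which gave 9 of the 55401 rows, since *Dlx6os1* names a long transcript and a second, short entry. The 3 libraries all had the genotype *Wnt1cre; Rosa26Dlx2/-* and are called OE replicates 1, 2 and 3. In these embryos a *Rosa26CAG-LSL-Dlx2-3xFlag* allele, in which a stop cassette precedes Flag-tagged *Dlx2*, is opened by Cre under the control of *Wnt1*, a gene active in the dorsal neural tube from which neural crest cells leave. Cells of the maxillary process that do not descend from that lineage, such as surface epithelium, blood and endothelium, were in the dissected tissue as well and, as far as this driver is known, do not carry the opened allele. The labels give the same genotype to the pregnant females. Libraries of other genotypes were not analysed here, so all values describe the overexpressing tissue on its own and no effect of *Dlx2* was tested. The labels say that the RNA samples were independent but not whether each came from its own embryo or litter, so every SD and p-value measures only the spread between these samples.

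*Dlx* genes encode homeodomain transcription factors related to *Distal-less* of the fly. They lie in pairs that share enhancers, and in the pharyngeal arches their expression is nested along the proximodistal axis: *Dlx1* and *Dlx2* are active in both the maxillary and the mandibular part of the first arch, while *Dlx5* and *Dlx6*, and further distally *Dlx3* and *Dlx4*, mark its mandibular part, where endothelin signalling acts through *Dlx5* and *Dlx6*. In the forebrain *Dlx1*, *Dlx2*, *Dlx5* and *Dlx6* act in the precursors of GABA neurons, and the antisense transcripts *Dlx1as* and *Dlx6os1*, also called Evf2, are known mainly from there.

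Each of the 3 pairs was convergent, with both genes reading toward the space between them. On chromosome 2 of GRCm38 (mm10), *Dlx1* (ENSMUSG00000041911, chr2:71528113-71533981, plus strand) and *Dlx2* (ENSMUSG00000023391, chr2:71543408-71546754, minus strand) were 9426 bases apart. On chromosome 6, *Dlx6* (ENSMUSG00000029754, chr6:6863334-6868568, plus strand) and *Dlx5* (ENSMUSG00000029755, chr6:6877805-6882085, minus strand) were 9236 bases apart. On chromosome 11, *Dlx3* (ENSMUSG00000001510, chr11:95120119-95125296, plus strand) and *Dlx4* (ENSMUSG00000020871, chr11:95140447-95146263, minus strand) lay farther from each other, with 15150 bases between them. *Dlx1as* (ENSMUSG00000084946, chr2:71516454-71537891, minus strand) covered the whole of *Dlx1*, and 335 of its exonic bases, 20.6% of them, were also exonic in *Dlx1*. *Dlx6os1* (ENSMUSG00000090063, chr6:6820189-6871592, minus strand) covered the whole of *Dlx6* but shared 0 exonic bases with it. *Dlx2*, *Dlx3* and *Dlx5* shared no exonic base with any annotated gene. The library kit is not stated to mark strand, so reads from the shared bases of *Dlx1* and *Dlx1as* cannot be told apart. The strand of reads in the other exons of *Dlx1as* and *Dlx6os1* is not known either, so their levels and ratios are not resolved by strand.

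**Figure D1:**
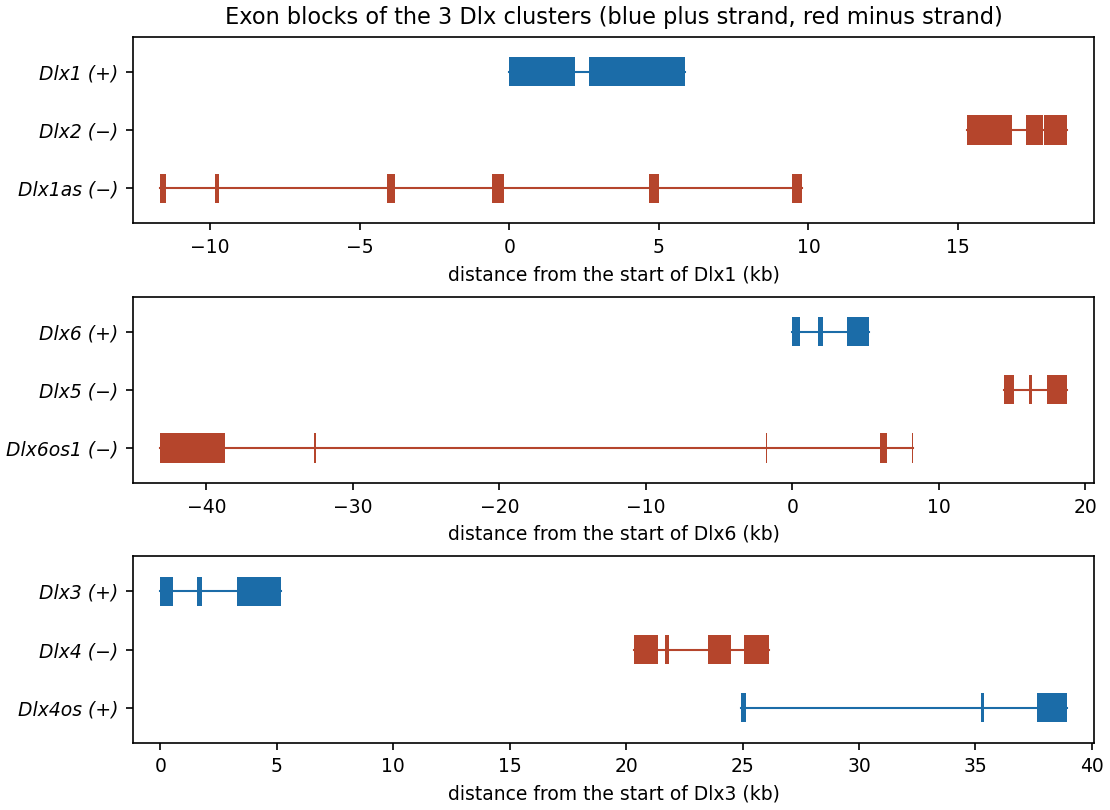
Exon blocks (boxes) and gene spans (lines) of the 3 *Dlx* pairs and their antisense transcripts, by distance in kb from the start of *Dlx1*, *Dlx6* or *Dlx3*, each panel with its own scale. *Dlx1as* and *Dlx6os1* run across *Dlx1* and *Dlx6* on the other strand, and 1 exon of *Dlx1as*, with 335 bases, lies within an exon of *Dlx1*.

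The 60 codons that the 6 genes have most in common lie in the region of the homeobox, and they bear on whether reads of one member could be counted for another. This stretch was chosen by likeness alone, so its ends need not be those of the homeobox. For each gene the 60 codons of this stretch are given 5′ to 3′ along the coding strand, from the GENCODE M21 transcripts on GRCm38. Capitals mark the bases that are unlike *Dlx2* at the same position. In every gene 138 of the 180 bases come from exon 2 and 42 from exon 3.
Dlx2: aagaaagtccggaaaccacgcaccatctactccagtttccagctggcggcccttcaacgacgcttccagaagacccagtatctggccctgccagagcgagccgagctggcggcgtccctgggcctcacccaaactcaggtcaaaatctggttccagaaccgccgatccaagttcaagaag
Dlx1: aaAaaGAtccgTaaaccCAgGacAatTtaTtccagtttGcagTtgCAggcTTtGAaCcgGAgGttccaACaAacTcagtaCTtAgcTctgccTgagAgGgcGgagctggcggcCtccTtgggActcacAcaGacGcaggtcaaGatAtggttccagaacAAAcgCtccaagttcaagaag
Dlx5: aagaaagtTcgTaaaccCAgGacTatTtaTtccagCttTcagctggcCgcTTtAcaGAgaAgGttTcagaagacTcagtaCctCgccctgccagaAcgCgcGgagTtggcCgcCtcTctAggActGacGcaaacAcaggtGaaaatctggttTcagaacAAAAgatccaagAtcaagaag
Dlx6: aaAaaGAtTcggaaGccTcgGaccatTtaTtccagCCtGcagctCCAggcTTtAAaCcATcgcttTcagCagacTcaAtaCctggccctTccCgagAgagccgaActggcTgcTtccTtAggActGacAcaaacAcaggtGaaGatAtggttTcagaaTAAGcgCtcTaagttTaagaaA
Dlx3: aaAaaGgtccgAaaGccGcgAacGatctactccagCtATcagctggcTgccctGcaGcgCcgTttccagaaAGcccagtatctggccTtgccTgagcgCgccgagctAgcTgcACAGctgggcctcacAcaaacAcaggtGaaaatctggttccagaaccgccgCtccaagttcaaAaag
Dlx4: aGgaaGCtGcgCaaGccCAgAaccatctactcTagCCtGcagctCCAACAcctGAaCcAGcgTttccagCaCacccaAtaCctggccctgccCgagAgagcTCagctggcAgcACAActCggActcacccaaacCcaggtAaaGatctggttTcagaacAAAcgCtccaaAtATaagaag
The *Dlx2* stretch is at chr2:71545384-71545521 and chr2:71544883-71544924 on the minus strand, and that of *Dlx1* at chr2:71531019-71531156 and chr2:71532264-71532305 on the plus strand. The *Dlx5* stretch is at chr6:6879526-6879663 and chr6:6878447-6878488 on the minus strand, and that of *Dlx6* at chr6:6865134-6865271 and chr6:6867041-6867082 on the plus strand. The *Dlx3* stretch is at chr11:95121761-95121898 and chr11:95123409-95123450 on the plus strand, and that of *Dlx4* at chr11:95141789-95141926 and chr11:95141428-95141469 on the minus strand. *Dlx3* was the closest to *Dlx2* in bases, with 31 of 180 unlike, followed by *Dlx5* with 41 and *Dlx1* with 46. *Dlx4* and *Dlx6* each differed from *Dlx2* at 51 bases. The order in encoded residues was another one: *Dlx5* matched *Dlx2* at 58 of 60, *Dlx3* at 57, *Dlx1* at 54, *Dlx6* at 53 and *Dlx4* at 48. Over the 15 pairs of *Dlx* genes, the longest run of bases shared by their transcripts was between 11 and 23 bases, against reads of 150 bases, so the paralogues had no read-length stretch in common.

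The 3 libraries held 35351031 to 40057435 counts on genes, at which depth 3 counts correspond to between 0.0777 and 0.0843 counts per 1000000 counts on genes (CPM, TMM-scaled). Each gene's 3 counts were tested against the scaled library sizes by a chi-square test with Benjamini-Hochberg adjustment over the 17115 genes that averaged 10 or more counts, and 13951 of them, 81.5%, differed beyond counting noise at an adjusted p of 0.05. This compares libraries of the same genotype with sampling noise and is no test of a condition. The libraries also differed in tissue markers. The summed level of 6 neuron markers was 230 CPM in replicate 1, 23.5 in replicate 2 and 33.6 in replicate 3, all 6 being highest in replicate 1, by 6.97 times the lowest library for *Isl1* to 27.2 times for *Elavl3*. The 4 optic vesicle markers summed to 9.35, 84.6 and 87.5 CPM, with ratios of highest to lowest from 6.34 for *Pax6* to 92.2 for *Rax*, and the 3 pigment cell markers to 0.57, 7.89 and 87.3 CPM, led by *Pmel* with 14, 213 and 2705 counts. The 6 facial mesenchyme markers, which include *Prrx1*, *Prrx2* and *Twist1*, were all detected and summed to between 1320 and 1410 CPM, but each of the 6 differed between libraries beyond counting noise, 2 being highest in replicate 1, 1 in replicate 2 and 3 in replicate 3. These positions rested on the processing. Corrected for gene length and GC content, *Prrx1*, *Pdgfra* and *Alx1* turned to replicate 3 and *Prrx2* and *Twist1* to replicate 1, while *Col1a1* stayed highest in replicate 3. *Pdgfra*, *Alx1* and *Col1a1* are named after their values were seen. In bulk tissue, fewer cells of a type and less RNA per cell cannot be told apart.

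*Dlx2*, the gene that the *Rosa26* allele adds, was high in every library. It had 9089, 7150 and 6890 counts in replicates 1, 2 and 3, which as CPM per kilobase of exon (RPKM) came to 82.5, 70.4 and 64.1 and averaged 72.3 ± 9.36 (SD, n = 3). Among 21897 protein-coding genes this level had rank 624, and the median of those tested was 4.69 RPKM. Reads of the *Rosa26* allele and of the endogenous gene cannot be told apart in these counts. *Dlx1*, the partner of *Dlx2* in the same cluster, had 2987, 1791 and 2222 counts, or 14.3, 9.33 and 10.9 RPKM, with a mean of 11.5 ± 2.56 (SD, n = 3). It was lowest in replicate 2, in which *Dlx2* lay between the other libraries.

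*Dlx3*, known for its part in skin, hair and tooth development, had 791, 661 and 552 counts. Its level of 7.86, 7.12 and 5.62 RPKM averaged 6.87 ± 1.14 (SD, n = 3) and followed the library order of *Dlx2*, highest in replicate 1 and lowest in replicate 3. *Dlx5*, a regulator of mandibular identity and of osteoblasts, had 256, 218 and 495 counts, or 2.93, 2.71 and 5.81 RPKM, with a mean of 3.82 ± 1.73 (SD, n = 3). Replicate 3 stood apart from the other libraries here, and its 95% Poisson interval of 12.0 to 14.4 CPM did not overlap those of 5.85 to 7.50 CPM in replicate 1 and 5.34 to 6.99 CPM in replicate 2. *Dlx6*, the cluster partner of *Dlx5*, had 43, 36 and 87 counts, or 0.469, 0.426 and 0.972 RPKM. Replicate 3 was again the highest, with an interval of 1.85 to 2.85 CPM against upper bounds of 1.501 and 1.40 CPM in the others. Such intervals cover counting error only.

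*Dlx4* was the lowest of the 6 protein-coding members, with 17, 17 and 18 counts, or 0.135, 0.146 and 0.146 RPKM. Its mean of 0.142 ± 0.00658 RPKM (SD, n = 3) had rank 13479 among protein-coding genes. The noncoding *Dlx4os* (ENSMUSG00000086552), which shares 79 exonic bases with *Dlx4* on the other strand, had 22, 17 and 36 counts, and reads from those bases cannot be told apart without strand. The antisense transcripts were also low. *Dlx1as* had 53, 39 and 22 counts, or 0.843, 0.672 and 0.358 RPKM, and was highest in replicate 1. *Dlx6os1* had 14, 11 and 9 counts, or 0.0701, 0.0597 and 0.0462 RPKM, the lowest level of any member with reads. The short second entry named *Dlx6os1* (ENSMUSG00000098326, chr6:6871488-6871633) and the neighbouring *Dlx6os2* had 0 counts in all 3 libraries. The short entry shares 104 of its 146 bases with the long *Dlx6os1* on the same strand, so reads there may have been set aside and its count of 0 gives no upper limit. For *Dlx6os2*, 1250 of whose 1354 exonic bases are shared with no other gene, 0 counts allow up to 0.0843 CPM in the shallowest library.

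Ordered by mean RPKM, the members ran from *Dlx2* through *Dlx1*, *Dlx3*, *Dlx5*, *Dlx1as*, *Dlx6* and *Dlx4* to *Dlx6os1*. Neighbours were called separated where their log2 ratio had the same sign in every library and a mean above its SD, and 5 of the 7 neighbouring pairs met this. *Dlx1* exceeded *Dlx3* by 0.74 ± 0.31 on the log2 scale, the narrowest of the separated steps. *Dlx3* and *Dlx5* were not separated, since *Dlx3* exceeded *Dlx5* by 1.42 and 1.40 in replicates 1 and 2 but lay 0.05 below it in replicate 3. This call turned with the gene length: per coding base *Dlx3* exceeded *Dlx5* in every library, by 1.14 ± 0.84, and the pair was separated. *Dlx1as* and *Dlx6* were not separated either, with a mean log2 ratio of 0.02 ± 1.27. Without replicate 3, all 7 pairs were separated.

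**Figure D2:**
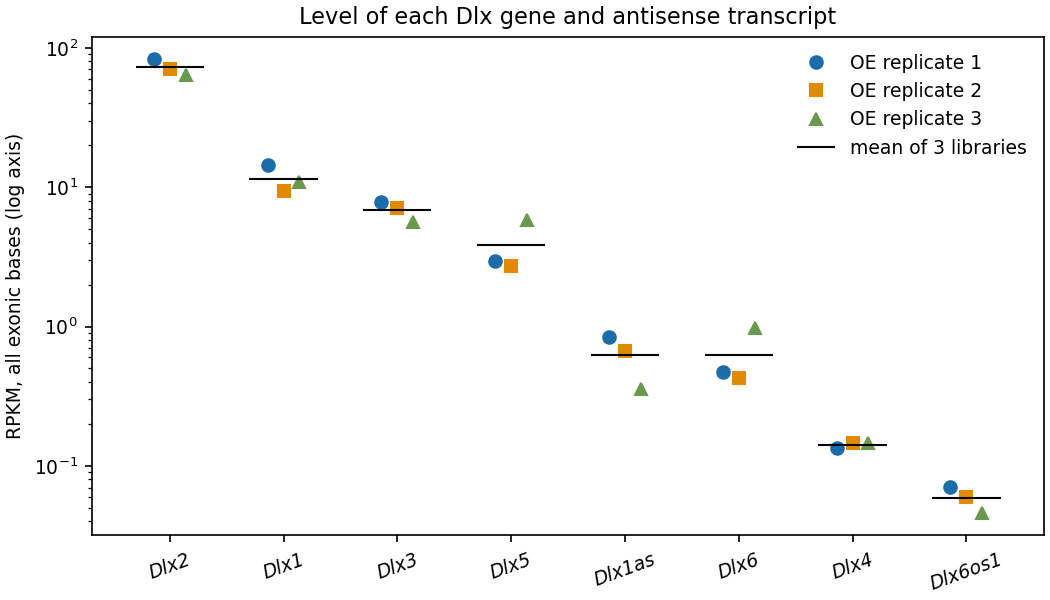
Level of each member in RPKM over all exonic bases, on a log axis, with 1 symbol per OE replicate and a line at the mean of the 3 libraries. *Dlx2* at 64.1 to 82.5 RPKM stands above every other member, *Dlx3* and *Dlx5* meet in replicate 3, and *Dlx6os1* is at the bottom.

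*Dlx2* made up 76.2%, 78.1% and 73.2% of the summed RPKM of the 6 protein-coding members in replicates 1, 2 and 3, or 75.8% ± 2.48 (SD, n = 3). With coding bases as the length, its mean share was 64.5%. *Dlx1* held 12.0% ± 1.5 (SD, n = 3), but 25.1% with coding bases. *Dlx3* held between 6.42% and 7.91%. The share of *Dlx5* was 2.71% and 3.00% in replicates 1 and 2 and 6.63% in replicate 3. Over all exonic bases *Dlx5* had a larger share than *Dlx3* in replicate 3 alone, and with coding bases in none of the libraries. By cluster, *Dlx1* and *Dlx2* together held 87.9% ± 1.97, *Dlx3* and *Dlx4* 7.35% ± 0.742 and *Dlx5* and *Dlx6* 4.79% ± 2.57 (SD, n = 3 each). The cluster with the smallest mean share thus had the widest spread between the libraries.

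Across libraries, 6 of the 8 members with reads differed beyond counting noise, beside 81.5% of all genes tested. A share of this size does not set the members apart from other genes. The adjusted p was 2.44e-57 for *Dlx2*, 9.78e-50 for *Dlx1*, 6.85e-29 for *Dlx5*, 1.32e-08 for *Dlx3*, 3.44e-06 for *Dlx6* and 0.00352 for *Dlx1as*. *Dlx4* at 0.966 and *Dlx6os1* at 0.639 did not pass, with means under 20 counts, where a change between libraries would have to be large to be detectable. Without replicate 3, only *Dlx1* and *Dlx2* passed, 2 of 8, while the share of all genes fell to 48.8%.

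The size of the spread sorted the members differently from its p. *Dlx2* had a coefficient of variation (CV) of 13.0% over the libraries and a highest level 1.29 times the lowest. *Dlx3* had a CV of 16.6% and *Dlx1* of 22.2%. *Dlx5* and *Dlx6* had the highest CVs, 45.3% and 48.8%, with highest levels 2.15 and 2.28 times the lowest. *Dlx1as* had a CV of 39.3% and a highest level 2.351 times its lowest. These sizes changed once each library had been corrected for its dependence on gene length and GC content: *Dlx2* then deviated from its mean by 0.40, 0.08 and -0.49 on the log2 scale and *Dlx5* by -0.09, -0.32 and 0.41, so *Dlx2* no longer had the smaller range. *Dlx6os1* deviated by -0.01, -0.09 and 0.11, which put replicate 3 highest rather than lowest. *Dlx4* deviated by -0.07, 0.03 and 0.04 before and by 0.10, 0.13 and -0.23 after it, which put replicate 3 lowest rather than highest. The median CV was 21.3% for the members and 27.0% for all genes tested, and 9.09% and 10.8% without replicate 3. *Dlx5* at percentile 78.5 and *Dlx6* at percentile 81.8 of all CVs were in the upper part of that range, and *Dlx2* at percentile 20.8 in its lower part.

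**Figure D3:**
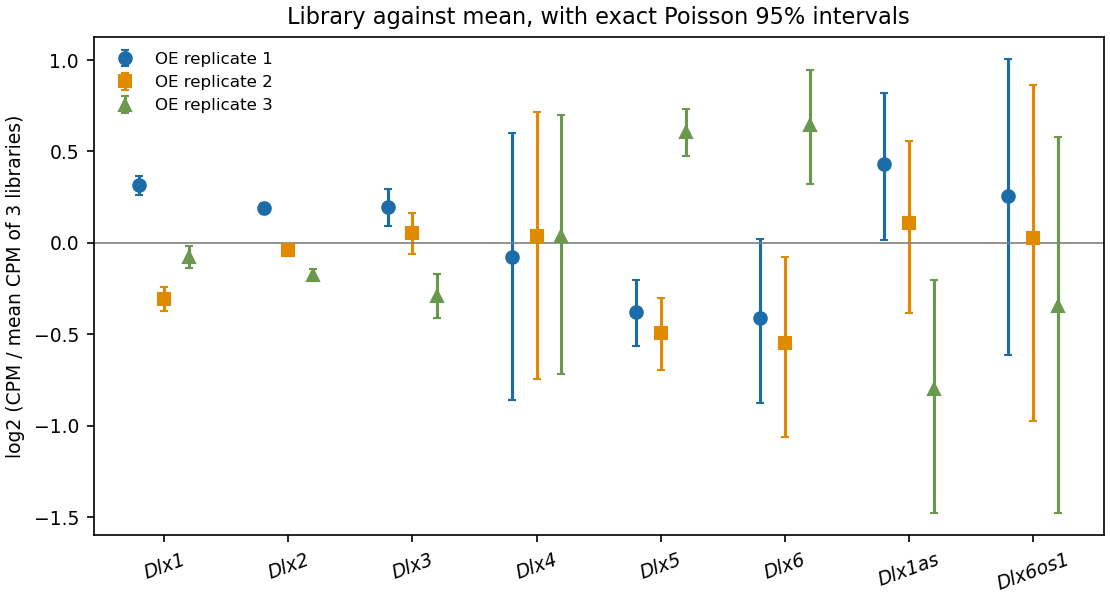
log2 of the CPM of each library over the mean of the 3 libraries, for the 8 members with reads, with exact 95% Poisson intervals as bars. *Dlx5* and *Dlx6* are highest in replicate 3, the highest levels being 2.15 and 2.28 times the lowest, *Dlx1*, *Dlx2*, *Dlx3* and *Dlx1as* are highest in replicate 1, and the intervals of *Dlx4* and *Dlx6os1* overlap.

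The members of a pair share a library, so the scaling of libraries drops out of their ratio. *Dlx5* exceeded *Dlx6* by 2.64, 2.67 and 2.58 on the log2 scale of RPKM in replicates 1, 2 and 3. The mean of 2.63 ± 0.05 (SD, n = 3), a ratio of 6.19, had the smallest spread of the 5 pairs compared. Their absolute levels moved over 2-fold between the same libraries, so *Dlx5* and *Dlx6* were higher in replicate 3 by nearly the same factor. With the correction for gene length and GC content, the SD of this ratio was 0.22 rather than 0.05. The share of *Dlx5* in the counts of the pair was 85.6% (95% Clopper-Pearson interval 81.1 to 89.4) in replicate 1, 85.8% (80.9 to 89.9) in replicate 2 and 85.1% (81.9 to 87.9) in replicate 3.

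*Dlx2* exceeded *Dlx1* by 2.52, 2.92 and 2.55, with a mean of 2.66 ± 0.22 (SD, n = 3), a ratio of 6.34. After the correction for gene length and GC content it was 2.71, 3.00 and 2.28, with an SD of 0.36, so which library stood apart turned from replicate 2 to replicate 3. Uncorrected, the share of *Dlx2* in the counts of the pair was 79.97% there (79.1 to 80.8) and 75.3% (74.5 to 76.0) and 75.6% (74.7 to 76.5) in replicates 1 and 3. The size of the ratio rested on the length used: *Dlx1* has 5396 exonic but 765 coding bases and *Dlx2* has 2855 and 996, and per coding base the mean ratio was 1.36 on the log2 scale, or 2.57-fold. *Dlx3* exceeded *Dlx4* by 5.87, 5.61 and 5.27, with a mean of 5.58 ± 0.30 (SD, n = 3), a ratio of 47.8. This was the most unequal of the pairs, in each library.

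*Dlx1* exceeded its antisense transcript *Dlx1as* by 4.09, 3.79 and 4.93, with a mean of 4.27 ± 0.59 (SD, n = 3), a ratio of 19.3 that was 10.9 with the longest transcript as the length. Replicate 3, with the lowest *Dlx1as* level, had the highest ratio, and *Dlx1* held 99.0% (98.5 to 99.4) of the counts of the pair there. *Dlx6* exceeded *Dlx6os1* by 2.74, 2.83 and 4.40, with a mean of 3.32 ± 0.93 (SD, n = 3). Replicate 3 again had the highest ratio, and *Dlx6* held 90.6% of the counts of the pair there (83.0 to 95.6), against 75.4% (62.2 to 85.9) and 76.6% (62.0 to 87.7) in replicates 1 and 2, with intervals that overlapped. With 3 libraries a two-sided exact sign-flip permutation test cannot go below p = 0.25, which is the value all 5 pairs gave (0.25 after Benjamini-Hochberg adjustment).

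**Figure D4:**
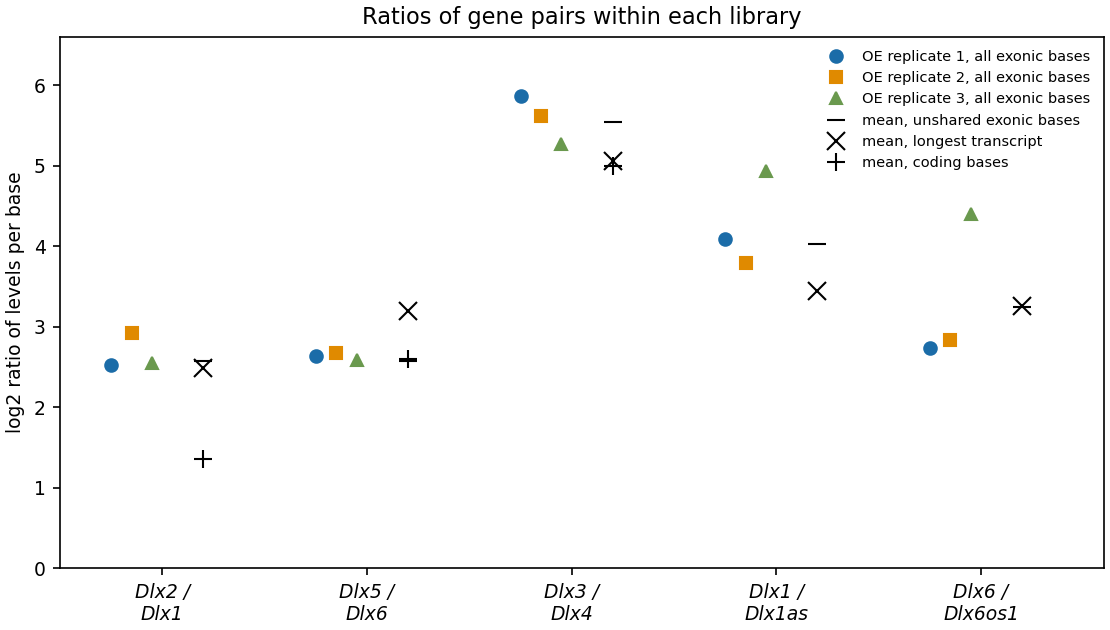
log2 ratio of levels per base for 5 gene pairs, with coloured symbols for the 3 OE replicates over all exonic bases and black marks for the mean under other gene lengths. *Dlx5* over *Dlx6* is the tightest at 2.63 ± 0.05, *Dlx3* over *Dlx4* is the highest at 5.58, and *Dlx2* over *Dlx1* is 1.36 with coding bases.

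Ratios between clusters ranged from even to uneven over the libraries. *Dlx3* lay below *Dlx2* by nearly the same amount in every library, with log2 ratios of -3.39, -3.30 and -3.51 and a mean of -3.40 ± 0.10 (SD, n = 3). *Dlx5* against *Dlx2* gave -4.81, -4.70 and -3.46, and *Dlx5* against *Dlx1* gave -2.29, -1.78 and -0.91. *Dlx5* against *Dlx3* went from -1.42 and -1.40 to 0.05 in replicate 3, and gave -1.42, -1.41 and 0.06 after the correction for gene length and GC content. Replicate 3 was therefore the library in which *Dlx5* was closest to or above each of these genes.

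The arch genes around *Dlx* were read from a list of 15 that holds the endothelin, FGF and BMP signals of the first arch and factors downstream of or beside *Dlx*. Of these, 12 were at or above 1 CPM in every library, and 13 of the 14 tested differed beyond counting noise, beside 81.5% of all genes tested: 3 were highest in replicate 1, 3 in replicate 2 and 7 in replicate 3. Of all genes tested, 39.6% were highest in replicate 1, 17.2% in replicate 2 and 43.2% in replicate 3. *Gsc*, a mandibular homeobox gene that depends on *Dlx5* and *Dlx6*, had 53, 82 and 583 counts, or 1.37, 2.30 and 15.5 CPM, so its highest level was 11.3 times the lowest and fell in the same library as those of *Dlx5* and *Dlx6*. *Hand2*, *Barx1*, *Mef2c*, *Edn1*, *Msx2*, *Fgf8*, *Bmp4*, *Msx1*, *Ednra* and *Pou3f3* are given after their values were seen. *Hand2*, another distal gene downstream of endothelin, had 4.66, 7.59 and 7.27 CPM and was thus not highest in replicate 3. *Hand1* was near the floor with 5, 2 and 1 counts. *Barx1*, known from the mesenchyme of the molar region, had 332 and 409 CPM in replicates 1 and 2 and 928 CPM in replicate 3. After the correction for gene length and GC content *Barx1* deviated from its mean by -0.23, -0.09 and 0.32 on the log2 scale and *Gsc* by -1.02, -0.45 and 1.46, both smaller differences than before and with replicate 3 still highest. Other genes of the list went the opposite way: *Mef2c*, a factor downstream of endothelin, had 21.5, 15.9 and 7.57 CPM and was lowest in replicate 3, and *Edn1*, the endothelin ligand, had 1.11, 0.393 and 0.504 CPM and was highest in replicate 1. *Msx2* had 69.0, 71.1 and 71.9 CPM and did not pass the test of counting noise (adjusted p = 0.324). The correction for gene length and GC content also changed the highest library of some genes of the list. *Fgf8*, *Bmp4* and *Msx1*, counted highest in replicate 3 before it, were then highest in replicates 1, 2 and 2. *Fgf8* deviated by 0.39, 0.10 and -0.49. *Ednra* and *Pou3f3*, highest in replicates 2 and 1 before it, were then highest in replicate 3. The 3 markers of the distal arch, *Hand1*, *Hand2* and *Gsc*, summed to 6.17, 9.95 and 22.8 CPM, and the part of carried-over distal tissue in the *Dlx5* and *Dlx6* levels was not tested.

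The surface and oral epithelium also expresses *Dlx* genes, *Dlx3* among them, and its 6 markers were all at or above 1 CPM. They summed to 414, 264 and 267 CPM and 5 of the 6 were highest in replicate 1, where *Dlx1*, *Dlx2* and *Dlx3* were also highest. *Trp63*, a regulator of stratified epithelia, had 55.5, 29.6 and 11.4 CPM, and *Cdh1*, the epithelial cadherin, named after its values were seen, had 48.1, 32.5 and 13.4 CPM. The highest level of *Trp63* was 4.85 times its lowest, against 1.40 times for *Dlx3*. Corrected for gene length and GC content, *Trp63* deviated by 0.78, 0.04 and -0.82 on the log2 scale and *Dlx3* by 0.41, 0.17 and -0.57. Their part in the levels of *Dlx1*, *Dlx2* and *Dlx3* was not tested.

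Genes of GABA neuron precursors that depend on *Dlx1* and *Dlx2* in the forebrain were mostly at a few counts. Of its 6 genes, *Lhx6*, which the arch mesenchyme also expresses, was the only one at or above 1 CPM in every library, with 112, 123 and 157 CPM. *Slc32a1*, the vesicular GABA transporter, had 0, 2 and 0 counts, under 3 in all libraries. *Gad1*, which makes GABA, had 7, 1 and 5 counts and *Sp9* had 1, 6 and 0. The 5 ventral forebrain markers, *Lhx6* among them, summed to 119, 155 and 184 CPM, most of it *Lhx6*. Among the others, *Gsx2* had 0, 3 and 50 counts and *Nkx2-1* 0, 11 and 27, highest in replicate 3 as *Dlx5* and *Dlx6* were. *Six3* had 4.02, 26.9 and 21.1 CPM and was highest in replicate 2. The part of forebrain tissue in the *Dlx5* and *Dlx6* levels was not tested.

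**Figure D5:**
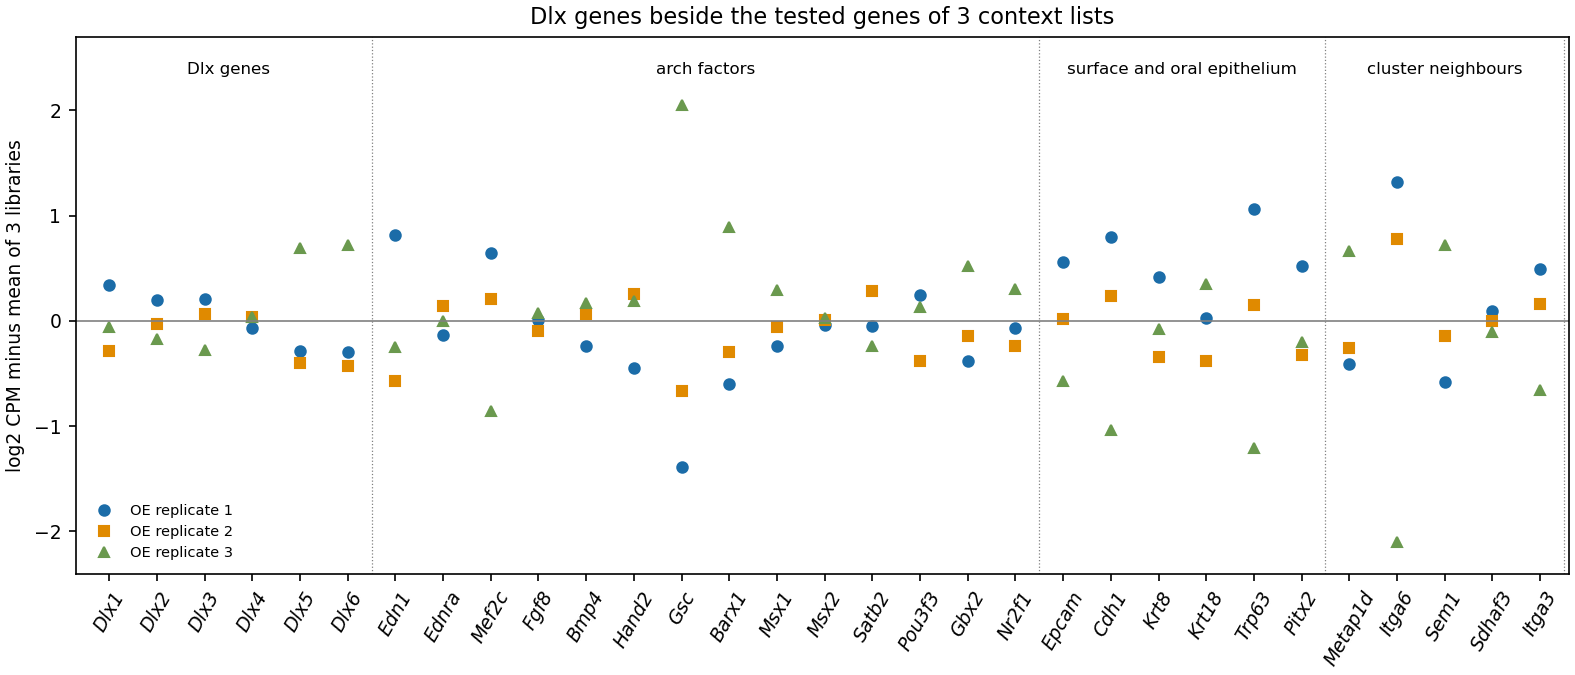
log2 CPM of each library minus the mean of the 3 libraries, for the 6 protein-coding *Dlx* genes and for the tested genes of the arch list, the epithelial list and the neighbours of the clusters. *Dlx5*, *Dlx6*, *Gsc* and *Barx1* are highest in replicate 3, and 5 of the 6 epithelial markers are highest in replicate 1 as *Dlx1*, *Dlx2* and *Dlx3* are.

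The nearest annotated protein-coding genes outside the clusters did not share one library order with the *Dlx* genes they flank. *Metap1d*, a mitochondrial methionine aminopeptidase gene 2918 bases from *Dlx1* and overlapped by the span of *Dlx1as*, had 20.1, 22.4 and 42.3 CPM and was highest in replicate 3, unlike *Dlx1* and *Dlx2*. *Itga6*, an integrin gene 198861 bases beyond *Dlx2*, had 54.1, 37.2 and 5.02 CPM, in the library order of *Dlx2*, and so was lowest in replicate 3. *Sem1*, a proteasome subunit gene 284670 bases from *Dlx6*, had 58.9, 79.9 and 145.7 CPM, highest in the same library as *Dlx5* and *Dlx6*. *Sdhaf3* on the other side of that cluster, 73918 bases from *Dlx5*, had 9.66, 9.05 and 8.42 CPM and did not pass the test of counting noise (adjusted p = 0.216). *Itga3*, 43317 bases from *Dlx3*, had 71.3, 57.0 and 32.3 CPM, in the library order of *Dlx3*, and *Tac4*, 115265 bases from *Dlx4*, had 0, 1 and 2 counts.

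The genes with the most similar profiles were found by the Euclidean distance between log2 CPM values centred on each gene's mean over the 3 libraries, among the 11859 other genes that averaged 100 or more counts. For *Dlx1* they were *Fbxl16* (0.00482), *Fam83g* (0.05) and *Slc9a3r1* (0.0501). For *Dlx2* they were *Ube2h* (0.00166), *Slc25a46* (0.00343) and *Tbccd1* (0.0106). For *Dlx3* they were *Olfm2* (0.00228), *Tax1bp1* (0.00279) and *Hspa9* (0.00334), and for *Dlx5* they were *AC166779.2* (0.0172), *Gm4735* (0.0241) and *Cyp2d22* (0.0389). A centred profile of 3 libraries has few degrees of freedom, and 343 genes (2.89%) lay within 0.1 of *Dlx2* and 722 (6.09%) within 0.1 of *Dlx3*, but 25 (0.211%) within 0.1 of *Dlx5* and 17 (0.143%) within 0.1 of *Dlx1*. Within the family, *Dlx2* and *Dlx3* were the closest at 0.146 and *Dlx3* and *Dlx5* the farthest at 1.18, among the 4 members that averaged 100 or more counts.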

How the data were processed

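RNA was measured in 3 samples of 1 genotype. The authors mapped paired reads of poly(A) RNA, from a NEBNext Ultra kit, to mm10 with STAR 2.7.3a and deposited raw counts per gene. The submitters' processing notes also list HTSeq 0.12.4. The strand setting, the treatment of reads on overlapping genes and the annotation release are not given in the sources used here. Rows that name no gene took 14.2%, 15.7% and 16.4% of all reads counted in replicates 1, 2 and 3 and were left out of library sizes, which were 36544554, 35351031 and 40057435. Replicates were numbered in accession order.

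Identifiers were matched without version to GENCODE M21 (GRCm38), and 55141 of 55401 had a row there. CPM used TMM scaling in edgeR 4.0.16. RPKM divided CPM by the kilobases of all exons of a gene merged. Levels of different genes were compared only in RPKM. Counting noise was tested per gene by chi-square with Benjamini-Hochberg adjustment at 0.05 over genes averaging 10 or more counts. Shares of counts have exact Clopper-Pearson and levels exact Poisson 95% intervals, which cover counting error only. Profile distances used a prior count of 2. The stretch of coding sequence shown is the 60 codons most alike in the 6 genes, and its ends were not set to those of the homeobox. The alternatives were other scalings, other gene lengths, a pseudocount of 0.5, the removal of a length and GC trend with mgcv 1.9.3, another filter on low counts and leaving out each replicate. DESeq2 1.42.0 gave other size factors. Scripts ran in Python 3.11.15 (pandas 2.3.3, scipy 1.17.1, numpy 2.4.6, matplotlib 3.10.9) and R 4.3.3. Of the steps, the test of counting noise and the search for similar profiles were tested on simulated Poisson counts.

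Every member is named. Genes of the arch, GABA and marker lists are named where their 3 counts differ by over 4 times or are at or under 3 in all libraries, with the neighbours of each cluster and the 3 most similar profiles per member that averaged 100 or more counts. Exceptions are stated, some items are not reported here, and lists of tissue outside the arch are given by sums and ranges. The choice of this gene family and of the lists was made with earlier results of these data known. Of the marker lists, blood and endothelium summed to 977, 1770 and 2200 CPM in replicates 1, 2 and 3, most of it *Hbb-y*. *Hbb-y* had 935, 1728 and 2156 CPM, and *Pecam1*, the other gene of that list, had 41.7, 45.2 and 41.7 CPM. Otic and nasal placode summed to 139, 140 and 113 CPM, with *Pax2* at 19, 479 and 582 counts and *Sp8* at 131, 97 and 19.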

Additional observations from a re-analysis of the deposited data

How the results depend on the processing

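Over 109 alternatives for 18 results, 8 moved a value beyond its limit. Gene length moved 7 of these. With coding bases, *Dlx2* over *Dlx1* was 1.36 and *Dlx3* over *Dlx4* 5.00 on the log2 scale, and the share of *Dlx2* in the family was 64.5%. With the longest transcript, *Dlx5* over *Dlx6* was 3.20, *Dlx3* over *Dlx4* 5.06 and *Dlx1* over *Dlx1as* 3.44. With unshared exonic bases, *Dlx5* over *Dlx6* was 2.57, a shift above the SD of 0.05. These follow from the lengths themselves. Leaving out 1 replicate left 2 to 6 members beyond counting noise, the lowest without replicate 3 (*Dlx1* and *Dlx2*), while 71.2%, 77.7% and 48.8% of all genes passed without replicates 1, 2 and 3, and the cause was not tested. The order of *Dlx1as* and *Dlx6* turned without replicate 1 and without replicate 2, *Dlx3* and *Dlx5* were separated with coding bases, and the library orders of *Dlx4* and *Dlx6os1* turned with the correction for gene length and GC content. That correction also changed the highest library of genes in the arch and facial mesenchyme lists. Without replicate 3 the median CV was 9.09% for the members and 10.8% for all genes tested. Other scalings moved none of these results beyond its limit. Depth limits *Dlx4*, with 17 to 18 counts per library, and *Dlx6os1*, with 9 to 14. No paired analysis was possible because all libraries belong to 1 group.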
